A study of Homo sapiens with 10 samples.

Results

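The 9 genes described here carry MHC class I antigen presentation: HLA-B, HLA-C, HLA-E and HLA-F, which encode class I heavy chains, B2M, which encodes the light chain, TAP1, TAP2 and TAPBP of the peptide loading machinery, and NLRC5, a transactivator of class I genes. They were chosen by gene symbol, with earlier results of these data known, and are 9 of the 46427 genes listed for every library. Poly(A) RNA was sequenced in 10 libraries of the established human lung cancer cell lines H460 and A549. Parental H460 cells were grown attached in serum-containing medium (2D culture) and gave 3 libraries. Drug-resistant H460 cells gave 4 libraries: 1 of CR cells (4 µM cisplatin), 2 of PR cells (5 nM paclitaxel) and 1 of DR cells (0.5 µM doxorubicin). In each case the drug was present for 3 days, the cells were kept for 3 more days in fresh medium, and those that attached after re-plating were collected. They are therefore survivors of 1 exposure of 3 days. Tumor spheroid (TS) cells, which the labels name CTC after the culture method, were grown in suspension with growth factors and passaged at least 3 times. H460 TS, A549 TS and A549 2D cells gave 1 library each. Medium and attachment both differed between TS and 2D cells and cannot be told apart.

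A class I molecule is a heavy chain paired with beta-2-microglobulin and a short peptide, shown at the cell surface to CD8 T cells. Peptides are cut in the cytosol by the proteasome, whose catalytic subunits are exchanged for those of the immunoproteasome under interferon gamma. They are pumped into the endoplasmic reticulum by the TAP1-TAP2 heterodimer and loaded with the help of tapasin, the product of TAPBP. HLA-B and HLA-C are classical heavy chains, whereas HLA-E shows mainly leader peptides of other class I chains to natural killer cells, and HLA-F is a second nonclassical chain. Transcription of class I genes depends on upstream elements bound by NF-kappaB, interferon regulatory factors and an enhanceosome of RFX, CREB/ATF and NF-Y factors, on which NLRC5 acts. Loss of class I expression is a common route by which tumors escape T cells.

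On GRCh38.p14, as annotated by RefSeq, most of the genes lie in the MHC on chromosome 6. HLA-F spans chr6:29723434-29738532, HLA-E spans chr6:30489509-30494194, HLA-C spans chr6:31268749-31272092 and HLA-B spans chr6:31353875-31357179. TAP2 (chr6:32821831-32838739) and TAP1 (chr6:32845209-32853704) flank the immunoproteasome gene PSMB8, and TAPBP lies at chr6:33299694-33314078. B2M is at chr15:44711517-44718145 and NLRC5 at chr16:56989557-57083520. RefSeq promoter windows of 300 bases, from 250 before the start of the gene to 50 after it, were at hand for 7 of the 9 genes, HLA-E and NLRC5 being the others. The 250 bases before the start are shown, 5′ to 3′ on the strand of the gene, for the heavy chain genes with the 2 highest fold changes in drug-resistant cells, for B2M, and for TAP1 and TAP2, whose fold changes had opposite signs. TAP1 has 2 windows in RefSeq, of which the upstream one is shown. Capitals mark matches, on either strand, to the 5 motifs named next.
HLA-B (chr6:31357180-31357429, minus strand): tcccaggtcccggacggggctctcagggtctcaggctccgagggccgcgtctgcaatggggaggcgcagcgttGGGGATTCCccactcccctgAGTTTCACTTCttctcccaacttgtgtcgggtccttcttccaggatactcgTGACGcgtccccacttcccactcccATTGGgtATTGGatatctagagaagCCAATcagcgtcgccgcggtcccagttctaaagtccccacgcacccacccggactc
HLA-C (chr6:31272093-31272342, minus strand): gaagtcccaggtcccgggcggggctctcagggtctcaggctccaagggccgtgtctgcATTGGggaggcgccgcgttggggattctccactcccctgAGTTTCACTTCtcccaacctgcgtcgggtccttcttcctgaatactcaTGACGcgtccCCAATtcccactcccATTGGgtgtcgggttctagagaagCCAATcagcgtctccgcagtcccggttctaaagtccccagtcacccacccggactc
B2M (chr15:44711267-44711516, plus strand): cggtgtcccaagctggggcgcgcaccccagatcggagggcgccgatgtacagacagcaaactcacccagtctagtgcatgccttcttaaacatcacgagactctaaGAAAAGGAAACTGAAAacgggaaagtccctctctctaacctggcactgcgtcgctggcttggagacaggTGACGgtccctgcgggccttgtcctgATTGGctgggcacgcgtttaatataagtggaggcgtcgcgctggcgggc
TAP1 (chr6:32853705-32853954, minus strand): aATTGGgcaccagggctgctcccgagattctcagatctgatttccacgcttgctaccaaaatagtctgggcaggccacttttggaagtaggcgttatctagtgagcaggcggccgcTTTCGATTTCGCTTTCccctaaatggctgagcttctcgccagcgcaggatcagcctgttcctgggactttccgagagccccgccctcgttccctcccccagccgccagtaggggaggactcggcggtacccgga
TAP2 (chr6:32838740-32838989, minus strand): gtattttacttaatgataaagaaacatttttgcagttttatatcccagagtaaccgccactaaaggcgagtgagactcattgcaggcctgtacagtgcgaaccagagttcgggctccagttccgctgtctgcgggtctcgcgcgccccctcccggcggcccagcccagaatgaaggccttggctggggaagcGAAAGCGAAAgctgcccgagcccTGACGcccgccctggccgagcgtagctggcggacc

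The motifs searched were an interferon-stimulated response element (GAAA and GAAA, with 2 bases of any kind between), the form that element takes in class I genes (AGTTTC and TTC, with 2 bases of any kind between), a kappaB site (GGGGATTCC), the core of a cyclic AMP response element (TGACG) and the CCAAT box (CCAAT). They were chosen with class I promoters in view, and matches to 1 motif may overlap each other. Among 35116 RefSeq promoter windows of this length, 3.57% held the first motif, 0.433% the second, 0.285% the third, 24.6% the fourth and 34.6% the fifth. HLA-B held the class I interferon element, the kappaB site, the cyclic AMP core and CCAAT boxes on both strands. HLA-C held the same elements except the kappaB letters. B2M and TAP1 each held 2 overlapping interferon-stimulated response elements, TAP2 held 1, and the letters GGGGATTCC were found in none of these 3 windows. Only this 1 form of a kappaB site was searched, and other forms were not looked for. The second TAP1 window held no match to any of the 5 motifs. A match describes the letters of the reference and was not examined as a bound site.

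The reads counted on genes numbered from 59499787 to 89541774 per library. The 9 genes had counts between 139 (HLA-F in A549 2D cells) and 59460 (B2M in the second PR library). Levels are given as FPKM, a read count scaled to transcript length and library size. Differences are log2 fold changes of read counts from the quasi-likelihood test of edgeR with Benjamini-Hochberg adjustment over all genes tested. A gene was called at an adjusted p under 0.05, and standard errors (SE) were taken from the fold change and its F statistic. The labels do not say that replicates came from separate cultures, so p-values measure the spread between these libraries, which may be technical. As markers of the lines, KRT8 and KRT18 were at 190.4 FPKM or more in all 10 libraries. EPCAM was at 0.114 FPKM or less and CDH1 at 0.027 FPKM or less in H460 cells, so these 2 epithelial markers were absent or nearly so. KRT19 was lower in A549 cells, at 3.57 FPKM in 2D and 68.3 FPKM in TS culture. Of the 6 leukocyte markers listed, PTPRC and CD3E did not exceed 0.157 FPKM in any library. In the same list, CD14 ranged from 2.37 to 17.1 FPKM and CORO1A reached 1.88 FPKM in A549 2D cells.

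In drug-resistant H460 cells, 6 of the 9 genes were called higher than in parental cells and none was called lower. HLA-B and HLA-C rose most, to levels 3.98 and 2.81 times the parental mean in FPKM, and HLA-F, HLA-E, TAP1 and NLRC5 rose by smaller factors. B2M, TAPBP and TAP2 were not called. Of all 18398 genes tested, 33.8% were called in this comparison, 18.5% as higher and 15.3% as lower, so calls were common throughout the transcriptome. The median log2 fold change was 0.74 over the 9 genes and 0.06 over all genes tested. In FPKM, 7 of the 9 genes were above every parental library in every drug-resistant library, a pattern held by 25.8% of the genes tested. In bulk RNA, a larger share of high-expressing cells and more RNA per cell cannot be told apart.

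**Figure D1:**
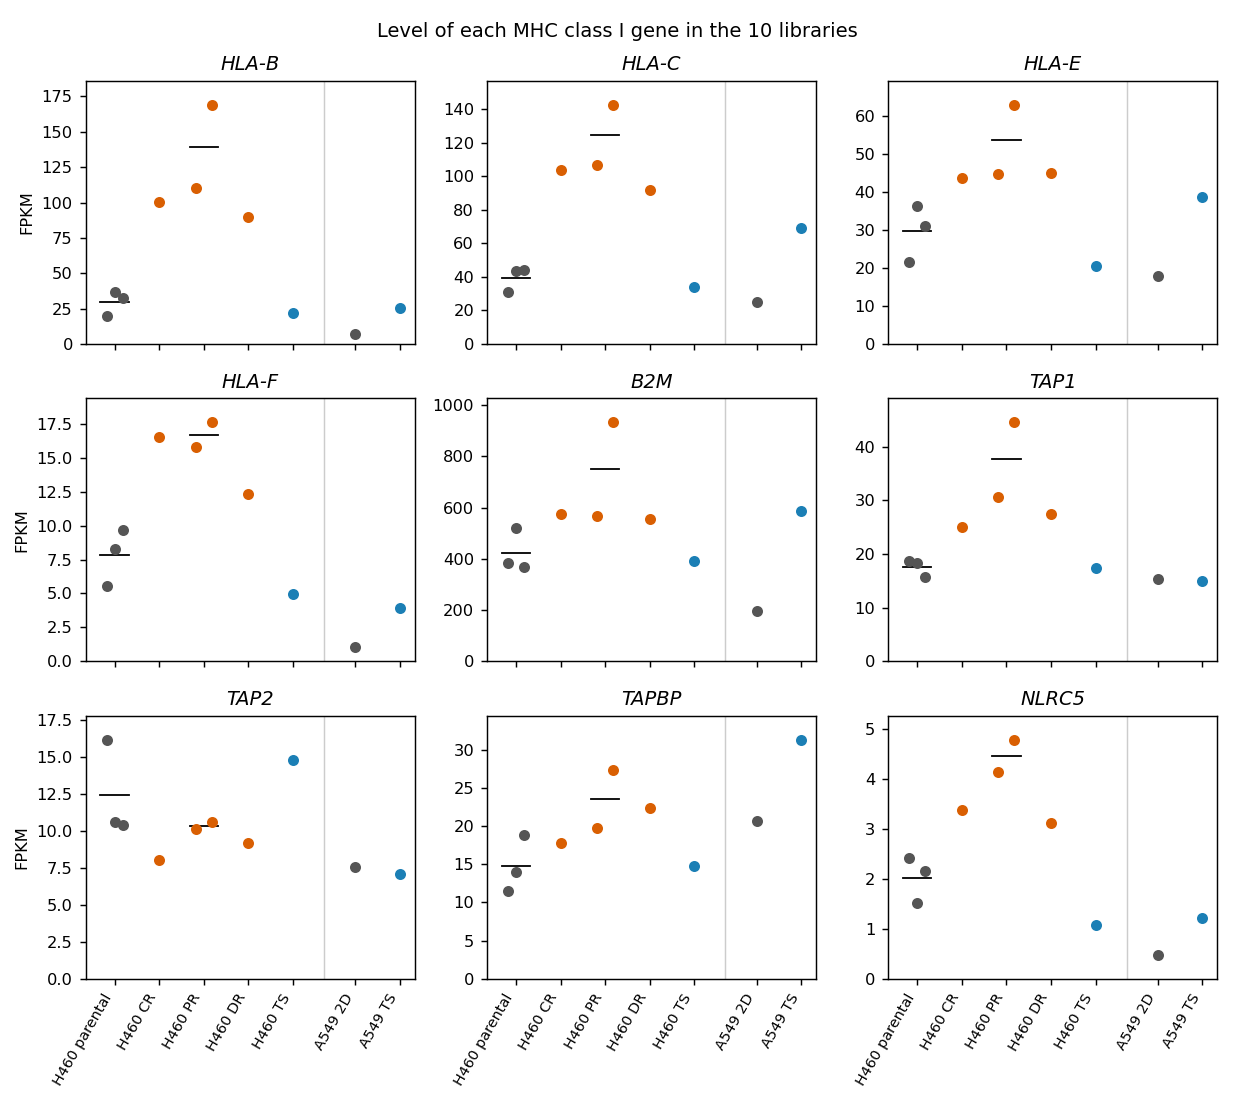
FPKM of each of the 9 genes (vertical axis, linear from 0, own scale per gene) in the 10 libraries, 1 point per library, with a line at the mean where a group has more than 1 library. For HLA-B the 4 drug-resistant libraries (orange) lie at 90.1 FPKM or above and the 3 parental libraries (grey) at 36.5 FPKM or below, and for TAP2 these groups overlap.

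HLA-B, a classical heavy chain, was at 19.6, 36.5 and 32.5 FPKM in the parental libraries, at 100.2 FPKM in CR cells, at 110.1 and 169.0 FPKM in PR cells and at 90.1 FPKM in DR cells. The lowest drug-resistant library was more than 2-fold above the highest parental library. The log2 fold change of HLA-B was 1.86 (SE 0.27, edgeR adjusted p = 0.00085). HLA-C, the other classical heavy chain described here, was at 31.3, 43.2 and 44.1 FPKM in parental cells, 103.5 FPKM in CR cells, 106.8 and 142.4 FPKM in PR cells and 91.8 FPKM in DR cells. Every drug-resistant library again exceeded every parental library, with a log2 fold change of 1.36 (SE 0.21, edgeR adjusted p = 0.0011).

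Both nonclassical heavy chains changed by less. HLA-F, present at a low level, was at 5.56, 8.28 and 9.65 FPKM in parental cells, 16.6 FPKM in CR cells, 15.8 and 17.6 FPKM in PR cells and 12.3 FPKM in DR cells, and its groups did not overlap. The log2 fold change of HLA-F was 0.98 (SE 0.22, edgeR adjusted p = 0.0069). HLA-E, the ligand of the natural killer cell receptor CD94-NKG2A, was at 21.6, 36.5 and 31.0 FPKM in parental cells, 43.9 FPKM in CR cells, 44.7 and 63.0 FPKM in PR cells and 45.1 FPKM in DR cells. The gap between the highest parental and the lowest drug-resistant library was narrow. HLA-E had a log2 fold change of 0.62 (SE 0.21, edgeR adjusted p = 0.043), and this call was held in only 5 of 13 alternative analyses, with adjusted p between 0.018 and 0.15.

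The makeup of the heavy chain transcripts differed between the groups. The summed FPKM of the 4 heavy chain genes was 107 ± 25 over the 3 parental libraries (SD) and 293 ± 68 over the 4 drug-resistant libraries (SD). HLA-B made up 27.4% ± 2.1 (SD, n = 3) of that sum in parental cells, compared with 39.6% ± 2.5 (SD, n = 4) after drug, with no overlap between the libraries. HLA-E made up 27.8% ± 1.4 (SD, n = 3) before and 16.9% ± 1.3 (SD, n = 4) after drug, again without overlap. The share of HLA-C was 37.5% ± 2.7 (SD, n = 3) before and 38.1% ± 1.2 (SD, n = 4) after drug, a difference within the spread. These shares are sums over the genes themselves and were not tested.

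**Figure D2:**
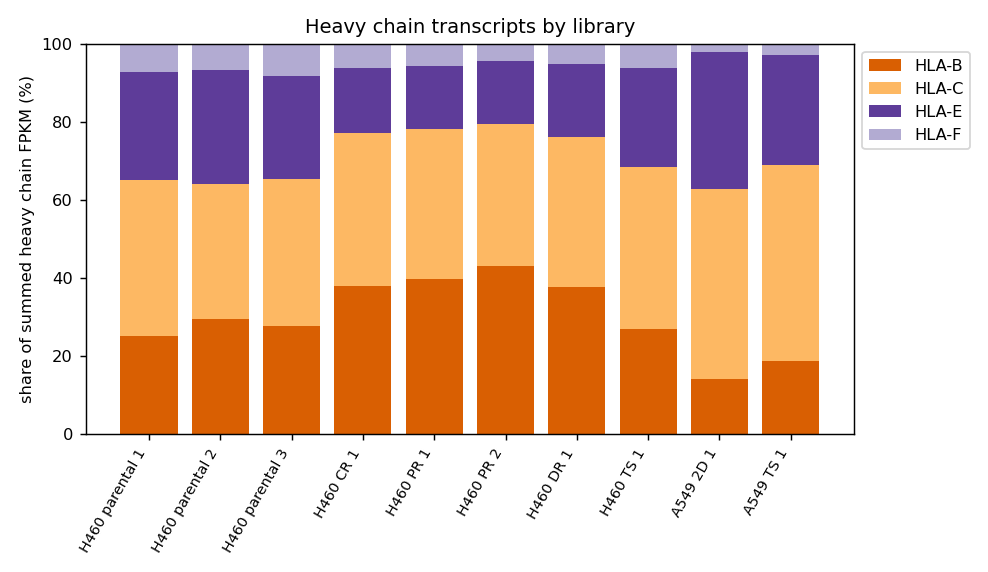
Share of the summed FPKM of HLA-B, HLA-C, HLA-E and HLA-F (vertical axis, percent) in each of the 10 libraries, 1 stacked bar per library. HLA-B takes 25.1% to 29.3% in the 3 parental libraries and 37.7% to 43.1% in the 4 drug-resistant libraries, and 13.97% and 18.6% in A549 2D and TS cells.

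B2M, the light chain shared by all class I molecules, had the highest level of the 9 genes in every library. It was at 382.5, 519.7 and 368.5 FPKM in parental cells, 575.4 FPKM in CR cells, 569.0 and 932.9 FPKM in PR cells and 553.5 FPKM in DR cells. The groups did not overlap, but the second PR library stood apart and the log2 fold change of 0.51 (SE 0.22) was not called (edgeR adjusted p = 0.097). B2M was called under upper-quartile scaling alone among 13 alternatives (log2 fold change 0.69, adjusted p = 0.044), a scaling that moved the median of all genes from 0.06 to 0.23. Relative to the 4 heavy chains, B2M amounted to 4.07 ± 0.88 times their summed FPKM in parental cells (SD, n = 3) and 2.23 ± 0.15 times in drug-resistant cells (SD, n = 4).

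TAP1 and TAP2, the partners of the peptide transporter, differed in direction. TAP1 was at 18.7, 18.4 and 15.6 FPKM in parental cells, 25.0 FPKM in CR cells, 30.7 and 44.6 FPKM in PR cells and 27.5 FPKM in DR cells, so that all drug-resistant libraries were above all parental ones. It rose with a log2 fold change of 0.74 (SE 0.19, edgeR adjusted p = 0.015), and without parental replicate 2 the adjusted p was 0.053. TAP2 was at 16.2, 10.6 and 10.4 FPKM in parental cells, 7.99 FPKM in CR cells, 10.1 and 10.6 FPKM in PR cells and 9.18 FPKM in DR cells. The groups overlapped in FPKM but not in TMM-scaled counts. The log2 fold change of TAP2 was -0.51 (SE 0.19, edgeR adjusted p = 0.061), short of the threshold. DESeq2 called TAP2 lower (adjusted p = 0.049), as did edgeR without parental replicate 2 (adjusted p = 0.046) or 3 (adjusted p = 0.045). The ratio of TAP1 to TAP2 in FPKM was 1.154, 1.738 and 1.5004 in parental cells and 3.13, 3.04, 4.22 and 2.99 in the CR, both PR and DR libraries. The ratios of the groups did not overlap, and their difference was not tested.

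TAPBP, whose product tapasin bridges the transporter and the empty class I molecule, was at 11.5, 14.04 and 18.9 FPKM in parental cells, 17.7 FPKM in CR cells, 19.7 and 27.4 FPKM in PR cells and 22.4 FPKM in DR cells. The CR library lay below the highest parental library, and TAPBP was not called (log2 fold change 0.34, SE 0.22, edgeR adjusted p = 0.26). Without parental replicate 3 it was called (log2 fold change 0.57, adjusted p = 0.046). NLRC5, the class I transactivator, was at 2.41, 1.51 and 2.16 FPKM in parental cells, 3.38 FPKM in CR cells, 4.12 and 4.78 FPKM in PR cells and 3.12 FPKM in DR cells. Its groups did not overlap, and it rose with a log2 fold change of 0.83 (SE 0.21, edgeR adjusted p = 0.014). Without parental replicate 2 the adjusted p of NLRC5 was 0.056.

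The names of the libraries in the labels take 2 forms, and both forms hold parental and drug-resistant libraries. Within the form of parental replicates 1 and 3 and PR replicate 1, the log2 difference of drug-resistant minus parental cells was 1.90 for HLA-B, 1.30 for HLA-C, 0.58 for HLA-E and 0.88 for HLA-F. Within the form of parental replicate 2, CR, DR and PR replicate 2, these differences were 1.59, 1.29, 0.39 and 0.86. TAP1 differed by 0.63 and 0.69 in the respective forms, NLRC5 by 0.68 and 1.21, B2M by 0.38 and 0.29 and TAPBP by 0.11 and 0.49. TAP2 was lower in both, at -0.59 and -0.29. The direction of each gene was thus the same in both forms, with 1 library on a side in each.

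PR cells, with 2 libraries, were also compared with the same 3 parental libraries, so the controls and the PR libraries are shared with the comparison above. HLA-B (log2 fold change 2.00, SE 0.31, edgeR adjusted p = 0.0035) and HLA-C (1.41, SE 0.26, adjusted p = 0.0055) rose in PR cells. HLA-F rose by a log2 fold change of 0.97 (SE 0.28, edgeR adjusted p = 0.032), TAP1 by 0.86 (SE 0.24, adjusted p = 0.027) and NLRC5 by 0.94 (SE 0.27, adjusted p = 0.031). These 5 of 9 genes were called where 28.1% of 19430 genes were called, 17.5% as higher. HLA-E (0.63, SE 0.28, adjusted p = 0.12), B2M (0.59, SE 0.27, adjusted p = 0.13), TAPBP (0.32, SE 0.29, adjusted p = 0.43) and TAP2 (-0.51, SE 0.27, adjusted p = 0.19) were not called by edgeR. The calls leaned on single libraries: 2 of the 9 genes were called without PR replicate 1, 2 without parental replicate 2, and 1, HLA-B, without PR replicate 2.

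**Figure D3:**
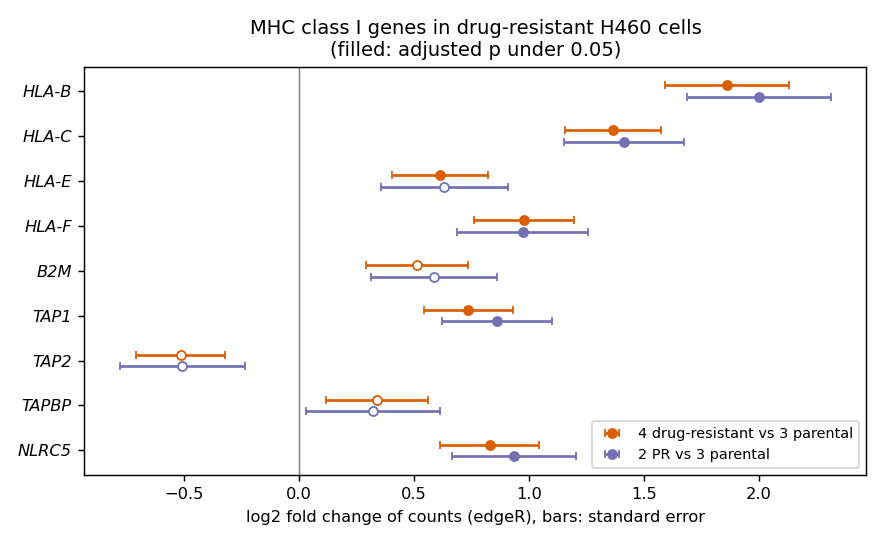
Log2 fold change of read counts (horizontal axis, edgeR, bars of 1 standard error) of the 9 genes for 4 drug-resistant against 3 parental libraries (orange) and for 2 PR against the same 3 parental libraries (purple), with filled points at an adjusted p under 0.05. HLA-B lies at 1.86 and 2.00, and TAP2 is the one gene left of 0, at -0.51 in both.

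The drugs were compared with each other by setting 2 PR libraries against the CR and DR libraries. None of the 9 genes was called by edgeR or by DESeq2. None had an unadjusted edgeR p under 0.05, compared with 23.8% of all genes tested. Over all 19601 genes, 0.245% were called by edgeR, 0.224% as higher and 0.0204% as lower. The log2 differences of PR minus CR and DR cells ranged from 0.06 for TAPBP (SE 0.18, edgeR adjusted p = 0.88) to 0.40 for HLA-B (SE 0.22, adjusted p = 0.32). By FPKM, the order of the drug-resistant libraries for HLA-B was PR, CR and DR, and for TAP1 it was PR, DR and CR. The difference of PR from CR and DR did not pass the test, and CR and DR, with 1 library each, were not compared by a test. Within PR cells, replicate 2 was above replicate 1 in FPKM for each of the 9 genes. PR replicate 2 was in fact the highest of the 4 drug-resistant libraries for 9 of 9 genes in FPKM and for 8 of 9 in TMM-scaled counts. The share of all genes with either pattern was not counted, so the 9 genes cannot be set against it. PR replicate 2 also had the lowest total count of the 10 libraries (59499787). The part of depth in this was not tested.

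With 1 library each, CR and DR cells have no replicate check of their values against the parental mean. In CR cells, HLA-B was 3.39 times and HLA-C 2.62 times the parental mean in FPKM, and in DR cells 3.05 and 2.32 times. On the log2(FPKM + 1) scale these 2 genes of the 9 were more than 2-fold higher in each drug, and none was more than 2-fold lower. Of all genes, 5.53% were more than 2-fold higher and 7.78% lower in CR cells, and 5.52% and 6.33% in DR cells.

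The genes around the class I pathway were described by lists chosen with earlier results of these data known, and their counts carry no test of the list. For peptide trimming and loading, 1 of 8 tested genes rose and 1 fell, where 18.5% of all genes were called higher and 15.3% lower. This count was near the share over all genes. TAPBPL, which encodes a tapasin-related peptide editor, rose with a log2 fold change of 1.16 (SE 0.26, edgeR adjusted p = 0.0073). UGGT1, which returns incompletely folded glycoproteins to the chaperone calreticulin, was lower at -0.59 (SE 0.19, adjusted p = 0.037).

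Of the 5 immunoproteasome genes, none rose and 2 fell (all genes: 18.5% higher, 15.3% lower). PSMB9, a catalytic subunit whose gene is the divergent neighbour of TAP1, was at 8.89, 17.6 and 11.5 FPKM in parental cells, 3.66 FPKM in CR cells, 3.51 and 5.77 FPKM in PR cells and 5.14 FPKM in DR cells. The groups did not overlap, and PSMB9 had a log2 fold change of -1.59 (SE 0.26, edgeR adjusted p = 0.0017). The promoter windows of TAP1 and PSMB9 share 13 bases, and TAP1 rose while PSMB9 fell in the same libraries. The ratio of TAP1 to PSMB9 in FPKM went from 1.502 ± 0.54 (SD, n = 3) to 7.16 ± 1.4 (SD, n = 4). PSME1, a subunit of the PA28 activator, fell to -0.60 (SE 0.18, edgeR adjusted p = 0.026), while PSMB8 at -0.54 (SE 0.20, adjusted p = 0.056) and PSMB10 at -0.15 (SE 0.27, adjusted p = 0.70) were not called. Of 5 constitutive proteasome genes, 1 fell and none rose, a count near the 15.3% of all genes called lower. PSMB6, replaced by PSMB9 in the immunoproteasome, fell to -0.73 (SE 0.17, edgeR adjusted p = 0.0084), whereas PSMB5 (-0.23, SE 0.21, adjusted p = 0.43) and PSMB7 (-0.42, SE 0.19, adjusted p = 0.12) did not pass. In FPKM, PSMB9 amounted to 0.0686 ± 0.016 of PSMB6 in parental cells (SD, n = 3) and 0.0380 ± 0.0078 in drug-resistant cells (SD, n = 4), ranges that did not overlap. The ratio of PSMB8 to PSMB5 was 0.135 ± 0.030 (SD, n = 3) before and 0.108 ± 0.014 (SD, n = 4) after drug, and that of PSMB10 to PSMB7 was 0.149 ± 0.021 (SD, n = 3) and 0.181 ± 0.039 (SD, n = 4), both with overlapping ranges.

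Among transcription factors, the 8 genes of the class I enhanceosome held 3 that fell and none that rose, beside 15.3% and 18.5% of all genes. CREB1 fell to a log2 fold change of -1.32 (SE 0.21, edgeR adjusted p = 0.0013), NFYB to -0.97 (SE 0.18, adjusted p = 0.0031) and ATF1 to -0.69 (SE 0.21, adjusted p = 0.027). Of the 5 NF-kappaB subunits, 2 rose and none fell. RELB rose by 2.34 (SE 0.42, edgeR adjusted p = 0.0025), from at most 1.84 FPKM in parental cells to 4.31 FPKM in CR, 7.61 and 15.4 FPKM in PR and 4.54 FPKM in DR cells. NFKB2, whose processed product pairs with RELB, rose by 1.01 (SE 0.34, adjusted p = 0.042), although CR cells at 17.5 FPKM lay below the highest parental library at 17.8 FPKM. Of the 4 genes of Polycomb repressive complex 2, a complex known to silence class I genes in some tumors, EZH2 (-1.85, SE 0.18, edgeR adjusted p = 0.00023) and SUZ12 (-1.04, SE 0.21, adjusted p = 0.0043) fell and none rose.

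Of 14 interferon signalling genes, 6 rose and none fell, beside 18.5% and 15.3% of all genes. IRF1, a factor induced by interferon gamma that binds class I promoters, rose by 1.48 (SE 0.38, edgeR adjusted p = 0.014), with 3.33 FPKM in CR, 8.11 and 12.8 FPKM in PR and 3.87 FPKM in DR cells against 2.00 to 2.89 FPKM in parental cells. IRF9 rose by 0.94 (SE 0.25, edgeR adjusted p = 0.017), IFNGR1 by 0.90 (SE 0.28, adjusted p = 0.032) and STAT2 by 0.90 (SE 0.23, adjusted p = 0.014). Of the 9 interferon genes, only IFNE had enough reads to be tested, and it was not called. IFNG and IFNB1 were listed at 0 in all 10 libraries. The 15 tested interferon-induced genes were split, with 5 higher and 3 lower against the same shares of all genes. IFIT2 rose by 2.35 (SE 0.40, edgeR adjusted p = 0.0020), and GBP2 by 1.91 (SE 0.62, adjusted p = 0.036). The level of GBP2 was low, at 0.294 FPKM or less in parental cells and 0.386 to 1.26 FPKM in drug-resistant cells. OAS3 fell to -2.10 (SE 0.22, edgeR adjusted p = 0.00024) and IFI44L to -1.91 (SE 0.28, adjusted p = 0.00089). IDO1 was called higher, being listed at 0 in the 3 parental libraries and at 0.129 to 0.267 FPKM in the drug-resistant ones.

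**Figure D4:**
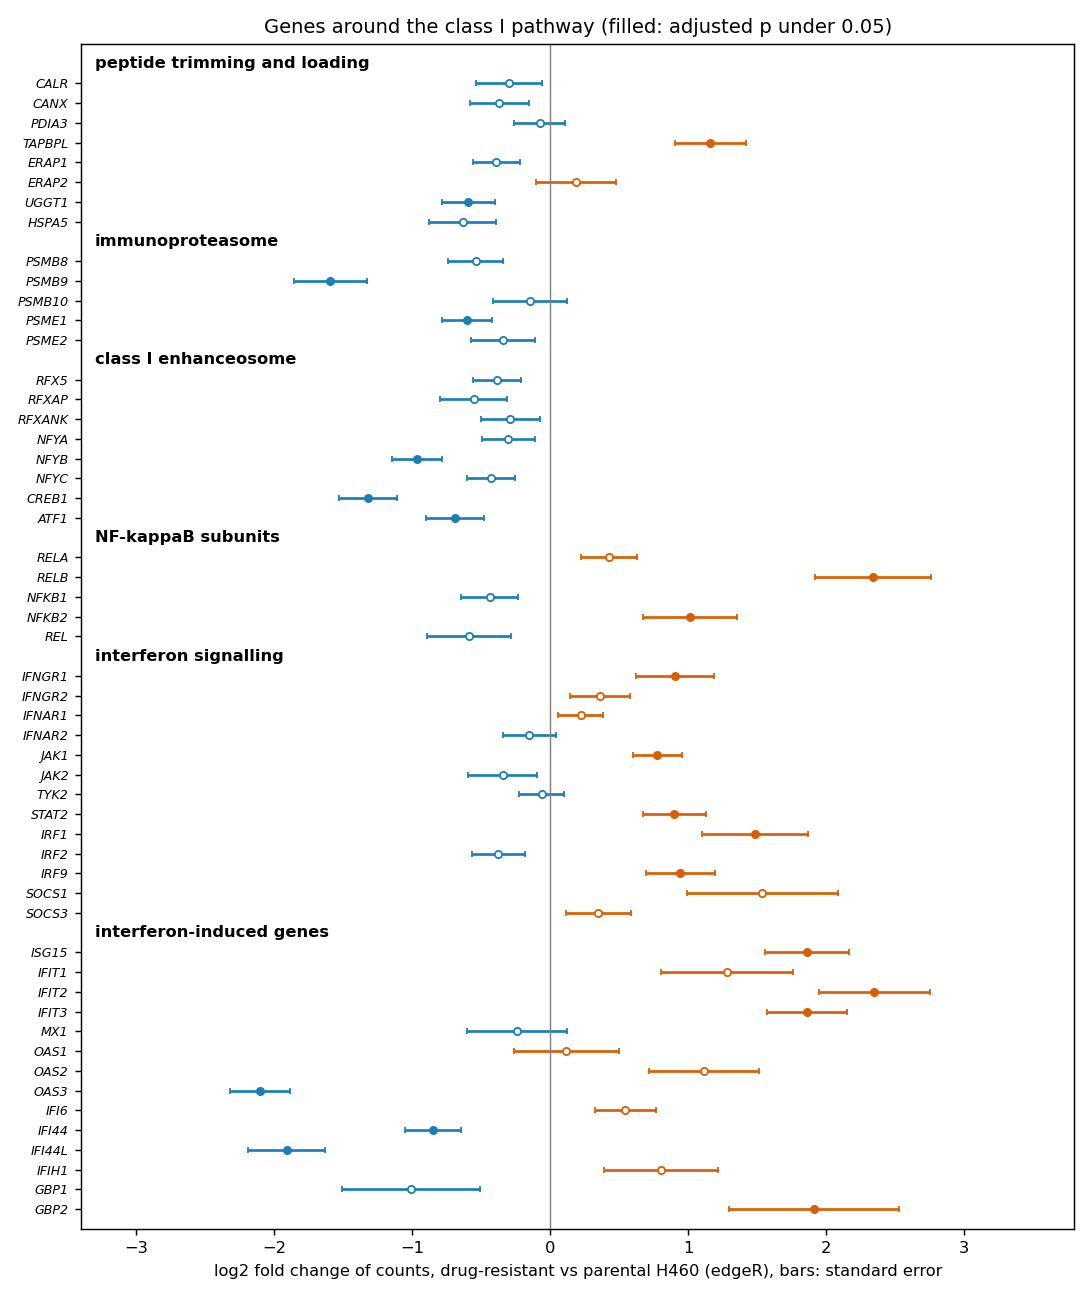
Log2 fold change of read counts, drug-resistant against parental H460 cells (horizontal axis, edgeR, bars of 1 standard error), for tested genes of 6 lists, with orange above 0, blue below 0 and filled points at an adjusted p under 0.05. Not every tested gene is drawn, IDO1 being left out because it was listed at 0 in parental cells, and PSMB9 lies at -1.59 while IRF1 lies at 1.48.

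Other ligands of lymphocytes were counted in the same comparison, in which 33.8% of all genes were called, 18.5% as higher and 15.3% as lower. Of 10 natural killer and nonconventional ligands, 3 rose and 1 fell, a count near those shares. MR1, a class I-like molecule that presents vitamin B metabolites, was at 1.68, 1.39 and 1.45 FPKM in parental cells and at 7.22, 5.64, 7.17 and 8.23 FPKM in the CR, PR and DR libraries (log2 fold change 2.12, SE 0.21, edgeR adjusted p = 0.00021). HFE, a class I-like regulator of iron uptake, fell to -0.72 (SE 0.22, adjusted p = 0.031). CD1D, which presents lipids, was listed at 0 in parental cells and reached 0.451 FPKM in PR cells. Of 5 tested MHC class II genes, 3 rose, among them HLA-DPA1 (3.23, SE 0.41, edgeR adjusted p = 0.00045), but no drug-resistant library exceeded 3.38 FPKM for any of the 10 listed. Of 6 checkpoint ligands, 2 rose and 1 fell.

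Markers of other cell types were examined beside these changes. The 6 leukocyte markers summed to 4.06 to 10.5 FPKM in parental cells and to 12.1 to 18.03 FPKM in drug-resistant cells, mostly through CD14. PTPRC and CD3E were each at 0 in the parental libraries and at 0.157 FPKM or less in drug-resistant cells. Of 3 tested leukocyte markers, LAPTM5 was called higher (up to 0.635 FPKM) and CORO1A lower. The 3 fibroblast markers summed to 0.113 to 0.194 FPKM in parental cells and 0.889 to 6.87 FPKM in drug-resistant cells. This came through COL1A1 (6.51 and 6.26 FPKM in PR cells), and both fibroblast markers tested were called higher. COL1A2 and DCN did not exceed 0.319 FPKM in drug-resistant cells. The 3 endothelial markers summed to at most 0.139 FPKM in drug-resistant cells, and 1 was tested and called higher. None of 4 tested epithelial markers was called. Of all genes tested in this comparison, 18.5% were called higher and 15.3% lower. The part of these marker genes in the class I changes was not tested.

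TS and 2D cells were compared in both lines together, with the line as a covariate. None of the 9 genes was called by edgeR or DESeq2. None had an unadjusted edgeR p under 0.05, compared with 7.42% of all genes tested. Of 18372 genes tested, 0.191% were called by edgeR. The log2 fold changes ranged from 0.0046 for TAP1 (SE 0.20) to 0.64 for B2M (SE 0.43), with adjusted p between 0.99 and 1.00. The values of each line are given next.

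In H460 TS cells, the 9 genes were near or below the parental level. HLA-B was at 21.7 FPKM, HLA-C at 33.9 FPKM, B2M at 391.8 FPKM, TAP1 at 17.4 FPKM, TAP2 at 14.8 FPKM and TAPBP at 14.8 FPKM, each within the range of the 3 parental libraries. HLA-E at 20.6 FPKM, HLA-F at 4.95 FPKM and NLRC5 at 1.08 FPKM were below every parental library, NLRC5 at 0.53 times the parental mean. The share of all genes below every parental library was not counted, so these genes cannot be set against it. On the log2(FPKM + 1) scale none of the 9 genes was more than 2-fold apart from the parental mean, where 1.9% of all genes were more than 2-fold higher and 2.26% lower.

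A549 2D cells had low class I levels. Compared with the mean of parental H460 cells, HLA-F at 1.09 FPKM was 0.14 times, HLA-B at 7.11 FPKM 0.24 times, NLRC5 at 0.477 FPKM 0.24 times and B2M at 196.7 FPKM 0.46 times that level. HLA-E at 17.8 FPKM and HLA-C at 24.9 FPKM were 0.60 and 0.63 times, TAP2 at 7.53 FPKM was 0.61 times and TAP1 at 15.4 FPKM 0.88 times. TAPBP at 20.7 FPKM was 1.40 times the H460 mean and above all 3 parental libraries, whereas the other 8 genes were below them. For this library too, the share of all genes outside the parental range was not counted. On the log2(FPKM + 1) scale, 4 of the 9 genes were more than 2-fold lower and none higher, compared with 8.39% and 11.1% of all genes.

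In A549 TS cells, the heavy chains, the light chain and NLRC5 were above A549 2D cells, and the transporter genes were not. HLA-B was at 25.5 FPKM (3.59 times the 2D library), HLA-F at 3.92 FPKM (3.60 times), B2M at 585.0 FPKM (2.97 times), HLA-C at 69.1 FPKM (2.78 times), NLRC5 at 1.21 FPKM (2.54 times) and HLA-E at 38.7 FPKM (2.17 times). TAPBP at 31.4 FPKM was 1.51 times, TAP1 at 14.9 FPKM 0.97 times and TAP2 at 7.05 FPKM 0.94 times the 2D library. A ratio above 2 was thus seen for 6 of 9 genes in FPKM and, with 1 added to each FPKM, for 5 of 9, compared with 6.7% of all genes on the latter scale. None of the 9 was more than 2-fold lower, compared with 3.02% of all genes. NLRC5 is the gene that dropped out with the added 1, because its level is low. With 1 library on each side these ratios have no replicate check.

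**Figure D5:**
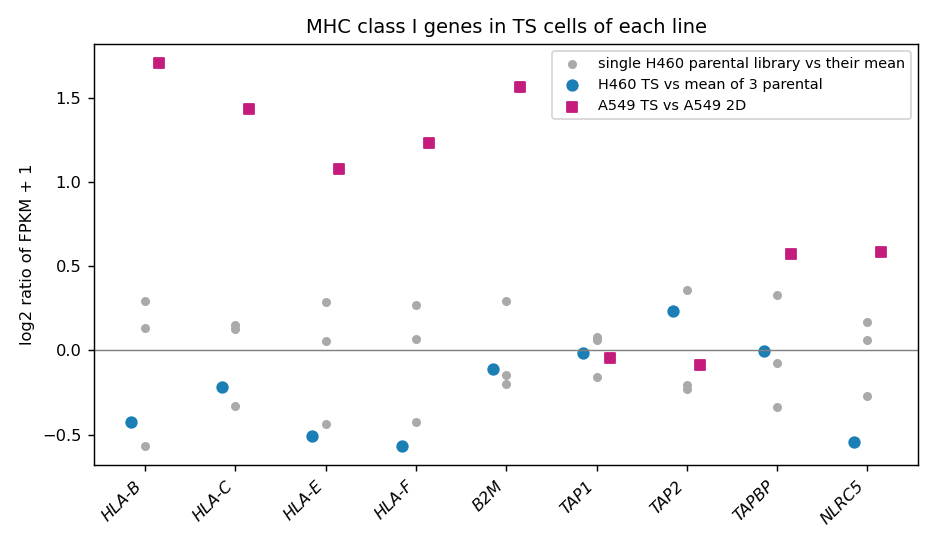
Log2 ratio of FPKM + 1 (vertical axis) for H460 TS cells against the mean of 3 parental libraries (blue circles) and A549 TS against A549 2D cells (pink squares), with each parental H460 library against their mean in grey. HLA-B lies at 1.71 in A549 and -0.42 in H460, whereas TAP1 lies near 0 in both lines.

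The difference between the lines was tested as an interaction, the TS change in A549 minus the TS change in H460 cells, with the spread estimated from the 3 parental libraries alone. None of the 9 genes was called by edgeR, while 6 had an unadjusted p under 0.05 compared with 8.16% of all genes. The log2 interaction was 2.62 for HLA-F (SE 0.73, edgeR adjusted p = 0.23), 2.32 for HLA-B (SE 0.69, adjusted p = 0.27) and 2.22 for NLRC5 (SE 0.69, adjusted p = 0.31). It was 1.74 for HLA-C (SE 0.60, edgeR adjusted p = 0.41), 1.72 for B2M (SE 0.57, adjusted p = 0.37) and 1.69 for HLA-E (SE 0.62, adjusted p = 0.47). TAPBP (0.74, SE 0.65), TAP1 (0.01, SE 0.52) and TAP2 (-0.30, SE 0.59) each had an adjusted p of 1.00. DESeq2 called HLA-B (adjusted p = 0.043) and HLA-F (adjusted p = 0.032), and edgeR called both without parental replicate 1. Of all 19941 genes tested, 0.436% were called by edgeR, 0.341% as higher and 0.0953% as lower.

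Each of the 17 interferon-induced genes listed had a higher FPKM in A549 TS than in A549 2D cells. The share of all genes that were higher was not counted. On the log2(FPKM + 1) scale, 10 of the 17 were more than 2-fold higher, compared with 6.7% of all genes. CXCL10, CXCL11 and IDO1 were near the floor, at 0 in A549 2D cells and at 0.405 FPKM or less in A549 TS cells. Of 17 tested, 2 were called higher in the interaction, IFI6 (5.52, SE 0.61, edgeR adjusted p = 0.016) and IFI44 (5.71, SE 0.79, adjusted p = 0.029), both named because the count is small. Over all genes tested in the interaction, 0.341% were called higher and 0.0953% lower. IFI6 went from 3.38 FPKM in A549 2D to 81.7 FPKM in A549 TS cells and from a parental range of 17.4 to 23.5 FPKM to 10.8 FPKM in H460 TS cells. Among interferon signalling genes none of 14 was called in the interaction. IRF1 was at 4.85 and 5.48 FPKM in A549 2D and TS cells. PSMB9 was at 10.4 FPKM in A549 2D and 5.84 FPKM in A549 TS cells.

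Over the 10 libraries, the heavy chain genes had like patterns. Pearson's r of log2(FPKM + 1) was 0.95 for HLA-C and HLA-E, 0.95 for HLA-B and HLA-F and 0.94 for HLA-B and HLA-C, and 0.93 for HLA-F and NLRC5. The lowest values among the heavy chains were 0.82, for HLA-F with HLA-C and with HLA-E. TAP2 and TAPBP were less like the others. TAP2 had r between -0.33 (HLA-E) and 0.13 (NLRC5) with the genes other than TAPBP, and -0.72 with TAPBP. TAPBP had r between 0.07 (HLA-F) and 0.56 (HLA-C) with the genes other than TAP2. The libraries share lines and treatments, and these values describe likeness only. Among 8721 genes that reached 1 FPKM in 2 or more libraries and spanned 1 log2 unit or more, the gene most like HLA-B was USP30 (r = 0.98), the gene most like HLA-C was ATP8B4 (0.98) and that most like HLA-F was ENC1 (0.98). HLA-E was most like FAM214B (0.96) and then ULBP2 (0.95), a stress-induced ligand of NKG2D. B2M was most like TSC22D1 (0.95), TAP1 most like CDKL3 (0.99), TAP2 most like SNHG7 (0.97), TAPBP most like TBC1D8 (0.94) and NLRC5 most like ZNF219 (0.98).

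Class I genes are close paralogs, so reads can fall on more than 1 of them. In the GENCODE 29 transcripts, the share of 50-base words of a gene also found in another gene was 2.12% for HLA-B, 6.17% for HLA-C, 5.13% for HLA-E and 1.25% for HLA-F, and at 100 bases it was 0.60% or less for each. For TAP2 it was 31.9% at 100 bases, through the overlapping gene model AL669918.1. Whether the annotation behind the deposited counts holds that model was not examined, so the TAP2 count may be uncertain. TAP1, B2M, TAPBP and NLRC5 had no shared word of 100 bases. The read length, the handling of shared reads and the use of strand are not given in the sources used here. The HLA alleles of the 2 lines may differ from the reference and were not examined.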

How the data were processed

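Poly(A) RNA sequencing data of 10 libraries were used. H460 cells gave 8 (parental 3, CR 1, PR 2, DR 1, TS 1), and A549 cells gave 1 from 2D and 1 from TS culture. For each gene the authors deposited a read count without normalization and an FPKM value, which they normalized for transcript length and library size, and TPM values, which were not used here. Per the labels, the submitters' processing notes name bcl2fastq 1.8.4, Trimmomatic, HISAT2 2.1.0 and StringTie 2.1.3b with the build GRCh38, and give no roles for them. Whole-number counts made through transcript assembly may not be independent reads, which would make their counting precision too high.

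Groups were taken from the sample labels. Counts were fitted with edgeR 4.0.16 in R 4.3.3 (TMM factors, filterByExpr, glmQLFit and glmQLFTest), with Benjamini-Hochberg adjustment over all genes tested and a threshold of 0.05. The 5 comparisons were drug-resistant against parental cells, PR against parental cells, PR against CR and DR cells, TS against 2D cells with the line as a covariate, and the interaction of TS culture and line. In the first, the drugs were treated as samples of 1 group, so the spread includes differences between drugs. The SE of a log2 fold change is its size divided by the square root of F. Alternatives were DESeq2 1.42.0, upper-quartile factors, no filter on low counts, limma 3.58.1 on log2(FPKM + 1) and log2(FPKM + 0.1), each library left out, the form of the library name as a covariate and a replicate block. Ratios of FPKM without a pseudocount for single libraries were added after seeing the data. The edgeR fit of each comparison was also run on simulated counts in which 200 genes had been changed. The alternatives were not run on simulated counts. Replicate pairs differed by a chi-square per gene of 80.7 to 338, so no library was taken as a duplicate. Depth was 59499787 to 89541774 counted reads per library.

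The 9 genes and the 16 gene lists beside them were chosen with earlier results of these data known. Named from each list were up to 4 genes called in drug-resistant cells with the largest changes, the subunit pairs PSMB8 and PSMB5, PSMB9 and PSMB6, and PSMB10 and PSMB7, with IRF1. Values of some genes of the lists are not reported here. IFI6, IFI44, IFNE, IFNG, IFNB1, CXCL10, CXCL11, EPCAM, KRT8, KRT18, KRT19, CDH1, PTPRC, CD3E, CD14, COL1A2 and DCN were named after their values were seen. For genes with a like pattern, up to 3 per gene could be named, and 1 or 2 are given. Positions and promoter sequences are those of RefSeq on GRCh38.p14, matched by NCBI Gene identifier. Python 3.11.15 with pandas 2.3.3, numpy 2.4.6 and matplotlib 3.10.9 made the tables and figures.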

Additional observations from a re-analysis of the deposited data

Results flagged for a closer look

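In a group of 4 libraries, a value was picked out where its gap to the nearest other library exceeded Dixon's 95% critical share of the range. Of the 9 genes examined in the 4 drug-resistant libraries, 2 met this, and chance flags about 1 group in 20. HLA-E was at 63.0 FPKM in PR replicate 2, a gap of 0.936 of the range above the other 3 libraries, which lay between 43.9 and 45.1 FPKM. B2M was at 932.9 FPKM in the same library, a gap of 0.942 of the range above the other 3, which lay between 553.5 and 575.4 FPKM. Both values come from 1 library, which also gave the highest FPKM of this group for the other 7 genes. The share of all genes highest in that library was not counted. Without PR replicate 2, the log2 fold change of HLA-E in drug-resistant against parental cells was 0.53 (edgeR adjusted p = 0.11).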

How the results depend on the processing

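In drug-resistant against parental H460 cells, HLA-B, HLA-C and HLA-F were called in all 13 alternatives, TAP1 and NLRC5 in 12, HLA-E in 5, TAP2 in 3, and B2M and TAPBP in 1 each, with no change of direction. HLA-E lost its call with no filter on low counts, with the name form as a covariate, and without any of parental replicates 1, 2 or 3, CR, DR or PR replicate 2. Without single libraries, 4 to 7 of the 9 genes were called. With upper-quartile factors 4210 of 6242 called genes were higher, compared with 3397 of 6220 with TMM factors.

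In PR against parental cells the number of the 9 genes called ranged from 1 to 5 without single libraries, and the number of all genes called from 950 (without PR replicate 2) to 6661, with 2068 without PR replicate 1, 3570 without parental replicate 2, and 3026 and 2773 by limma with pseudocounts of 1 and 0.1, compared with 5455. PR and parental replicates 1 and 2 share only a number, which coincides with the form of the library name. Their differences correlated at r = 0.14 over 12068 genes. With the replicate block over these 4 libraries, 6 of the 9 genes and 6775 genes in all were called, HLA-E among them (log2 fold change 0.74, adjusted p = 0.038), compared with 5 and 6661 for the same libraries without the block.

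In TS against 2D cells no alternative called any of the 9 genes, but directions depended on the line kept. Without single libraries the log2 fold change ranged from -0.43 to 1.89 for HLA-B, -0.21 to 1.52 for HLA-C, -0.52 to 1.16 for HLA-E, -0.69 to 1.92 for HLA-F, -0.093 to 1.62 for B2M, -0.013 to 0.028 for TAP1, -0.041 to 0.27 for TAP2, -0.067 to 0.66 for TAPBP and -0.90 to 1.32 for NLRC5. TAP1 was at -0.00077 by DESeq2, -0.021 with upper-quartile factors and -0.025 and -0.026 by limma, and NLRC5 at -0.085 and -0.022 by limma. Genes called in all numbered 35, compared with 537 by DESeq2, 19 by limma with a pseudocount of 0.1 and 6 to 322 without single libraries.

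In PR against CR and DR cells none was called under any alternative, and the range without single libraries was -0.051 to 0.35 for HLA-C, -0.15 to 0.31 for HLA-E, -0.20 to 0.26 for HLA-F, -0.16 to 0.53 for B2M and -0.22 to 0.23 for TAPBP. Genes called in all numbered 48, compared with 1908 by DESeq2, 318 with upper-quartile factors, 1227 with no filter, 143 and 186 by limma, 1 with the name form as a covariate and 0 to 934 without single libraries.

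In the interaction, DESeq2 called 2 of the 9 genes, and 0 to 2 were called without single parental libraries. TAP1 was at -0.034 and -0.036 by limma and ranged from -0.025 to 0.057 without single libraries. Genes called in all numbered 87, compared with 542 by DESeq2, 0 with no filter, 27 and 13 by limma, 656 without parental replicate 1 and 143 without parental replicate 2. The causes of these differences were not tested. CR, DR, TS and A549 cells had 1 library each, which limits every statement on them.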
